A study of Mus musculus with 4 samples.

Results

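The Dlk1-Dio3 miRNA cluster was followed through 58 probes of a mouse miRNA panel, out of 566 probes for mouse miRNAs and 618 probes in all. The members were the probes whose name, without its arm, was 1 of 47 miRNA names of the cluster, and each of the 47 names had at least 1 probe. None of the 58 probes named a second miRNA. Values came from 2 liver tumours and 2 normal livers, measured in total RNA with NanoString's nCounter miRNA Expression Assay. It counts colour-coded probes hybridised to each miRNA.

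Per the labels, the mice were NF2fl/fl females given either PBS or AAV2/8-Cre, a liver-directed viral vector that brings in Cre recombinase and so removes Nf2 from hepatocytes. The product of Nf2 is merlin, which restrains growth through Hippo signalling. Livers were examined 50 weeks after the administration and tumours were cut out. The labels call the samples liver tumours and normal liver. They do not tie the normal livers to PBS, and they give 3 mice without saying how these divide. Whether replicates are separate animals is not stated. The p-values then measure only how these samples vary, which may be technical. In bulk tissue, fewer cells of a type and less RNA per cell cannot be told apart.

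The Dlk1-Dio3 region is an imprinted domain at the distal end of mouse chromosome 12. The paternal copy expresses the protein-coding genes Dlk1, Rtl1 and Dio3, and the maternal copy expresses long noncoding RNAs, among them Meg3, Rian and Mirg, together with small nucleolar RNAs and one of the largest miRNA clusters of mammals. The miRNAs are abundant in embryo, placenta and brain, and in adult liver the maternal transcripts are low. The cluster has been described as raised in a subset of human hepatocellular carcinomas, and in mice treated as newborns with AAV vectors, integration in Rian has been tied to liver tumours with raised expression of the locus. No integration site was measured here.

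All 58 members mapped to chromosome 12 in RefSeq's GRCm38.p6 tables, over 180.1 kb from 109563692 to 109743795. A first stretch, from miR-770 to miR-370, held 18 probes over 54.6 kb. It includes the miRNAs that lie opposite Rtl1 and, made from the other strand, are perfectly complementary to its messenger RNA. A second, denser stretch, from miR-379 to miR-410, held 40 probes over 34.7 kb and starts 90.8 kb after miR-370. By position, 2 members lay within Meg3, 12 within Rtl1 alone, 2 within both Rtl1 and 6430411K18Rik, 2 within Rian and 10 within Mirg. The other 30 lay between the genes of that table.

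The sequences of the 7 members that exceeded the negative controls in all 4 samples are shown, since the results rest on them, together with miR-376b, the near copy of miR-376a. Capitals mark the seed, bases 2 to 8, which pairs with target messenger RNAs. The panel names most of these without an arm. The arm shown is the one that the older miRNA registry gave that name, which is background knowledge and is not stated in the table. The sequences are RefSeq's, for the plus strand of GRCm38.p6, in chromosome order.
miR-136, 5p arm, chr12:109595331-109595352: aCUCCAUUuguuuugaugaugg
miR-543, 3p arm, chr12:109717304-109717325: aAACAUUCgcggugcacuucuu
miR-376b, 3p arm, chr12:109723508-109723528: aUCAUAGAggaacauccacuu
miR-376a, 3p arm, chr12:109723824-109723844: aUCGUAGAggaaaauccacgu
miR-539, 5p arm, chr12:109728136-109728157: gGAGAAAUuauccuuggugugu
miR-154, 5p arm, chr12:109738438-109738459: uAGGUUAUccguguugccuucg
miR-496, 3p arm, chr12:109739165-109739186: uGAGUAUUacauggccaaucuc
miR-377, 3p arm, chr12:109740553-109740574: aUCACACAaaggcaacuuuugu

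These miRNAs share a stretch of chromosome 12 but not a seed. Of 58 members, 55 had a mature sequence in the table, and their 55 seeds were all different. MiR-376a and miR-376b, neighbours on the chromosome, differ at 3 of 21 positions (G4A, A13C and G20U, counted from the 5′ end, with the base of miR-376a first). 1 of these lies in the seed. The primary transcripts of this group are known to be edited from adenosine to inosine in brain, which the probe counts do not show.

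Few members stood above background. The limit for detection was set within each sample from its 6 negative control probes (NEG_ probes, which match no miRNA), as their mean count plus 2 SD, and a recovered probe count above it was taken as detected. That limit was 17.6 and 14.9 counts in the tumours and 18.3 and 11.2 counts in the normal livers. In the tumours 24 and 15 of the 58 members were detected, and in the normal livers 10 and 21. Each share was below that of all 566 mouse probes in the same sample. It was 41.4% against 54.9% and 25.9% against 36.9% in the tumours, and 17.2% against 28.8% and 36.2% against 48.1% in the normal livers.

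Counting rested on unequal depth. Recovered miRNA counts totalled 239727 and 123818 in the tumours and 68260 and 62054 in the normal livers. Probes for 33 miRNAs of mouse herpesviruses give a second measure of background. Of these, 12 and 2 exceeded the limit in the tumours and 5 and 9 in the normal livers, so a count just above it is weak ground for presence. With the limit set at the 95th percentile of the viral probes, 9 and 9 members were detected in the tumours and 6 and 5 in the normal livers.

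Over the 4 samples, 7 members were detected in all, 4 in 3 samples, 10 in 2, 10 in 1 and 27 in none. The 7 made up 12.1% of the members, and 24.03% of all mouse probes were detected in all 4 samples. In the second stretch 6 of 40 probes were detected in all samples, in the first 1 of 18, which was miR-136. In chromosome order they were miR-136, miR-543, miR-376a, miR-539, miR-154, miR-496 and miR-377. The last 3 were consecutive members, and the others were set apart by members detected in fewer samples. The plot of counts along the cluster shows miR-376a, miR-154 and miR-136 as peaks over a floor near the thresholds. MiR-496 had 36 and 19 counts in the tumours, no more than miR-495 (36 and 21), which was detected in 3 samples.

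**Figure D1:**
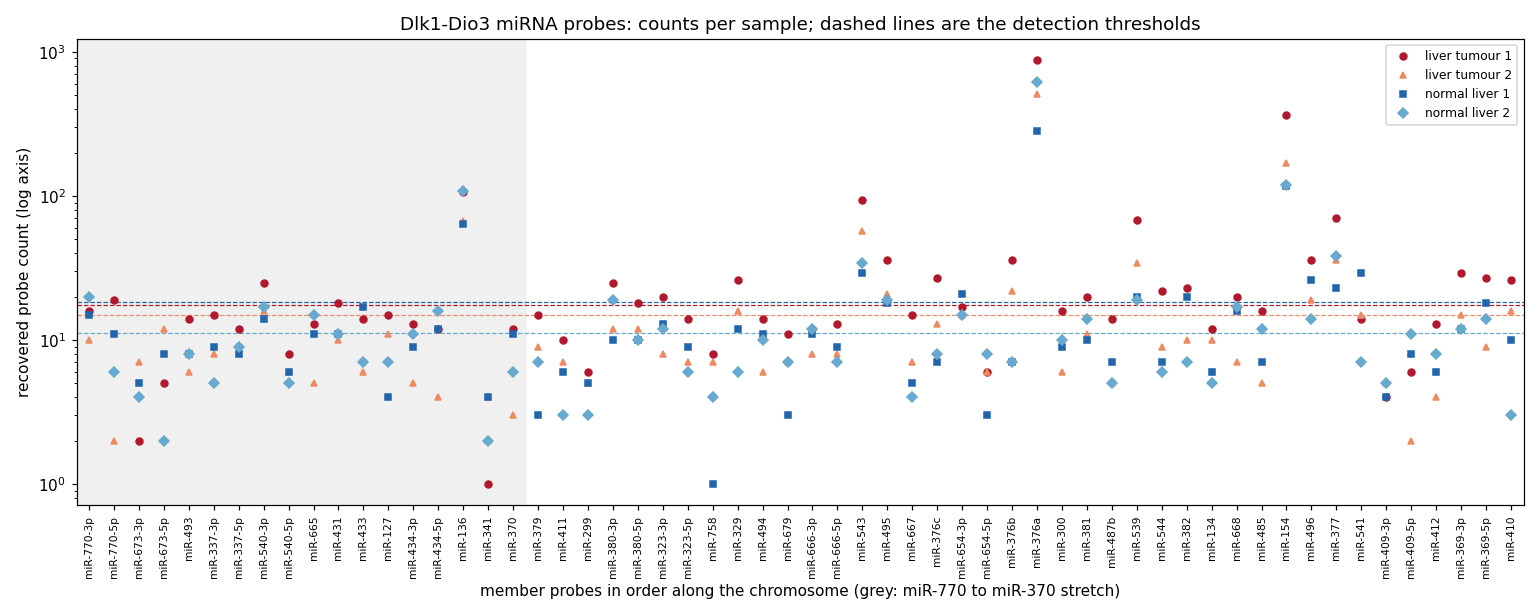
Recovered probe counts (vertical log axis) of the 58 members in chromosome order, 1 symbol per sample, with each sample's detection threshold as a dashed line (17.6 and 14.9 counts in the tumours, 18.3 and 11.2 in the normal livers). MiR-376a, miR-154 and miR-136 stand highest in every sample, and most other members lie near or under the thresholds.

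MiR-376a led the cluster in every sample. Its count was 877 and 509 in the tumours and 283 and 614 in the normal livers. It ranked 48th and 39th of all mouse probes in the tumours and 33rd and 21st in the normal livers. It took 0.366% (95% exact binomial interval 0.342 to 0.391) and 0.411% (0.376 to 0.448) of miRNA counts in the tumours. In the normal livers it took 0.415% (0.368 to 0.466) and 0.989% (0.913 to 1.07). Such intervals cover counting error only. By this share tumour 2 and normal liver 1 were nearly level, and normal liver 2 stood apart from the other 3 samples.

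Its closest relatives were near background. MiR-376b had 36 and 22 counts in the tumours, both above the limit, and 7 and 7 in the normal livers, both below it. MiR-376c, 1063 bases from miR-376a, had 27 and 13 counts in the tumours and 7 and 8 in the normal livers, and was detected in tumour 1 alone.

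MiR-154, known in human lung fibroblasts as induced by TGF-beta, was second. Its count was 364 and 170 in the tumours and 117 and 119 in the normal livers. It took 0.152% and 0.137% of miRNA counts in the tumours and 0.171% and 0.192% in the normal livers. MiR-136, one of the miRNAs opposite Rtl1, came next, with 107 and 67 counts in the tumours and 64 and 108 in the normal livers. Its share was 0.0446% and 0.0541% in the tumours and 0.0938% and 0.174% in the normal livers. Each of these 2 miRNAs had a lower share in both tumours than in both normal livers.

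These 3, the highest by count and singled out after their values were seen, made up 55.7% and 55.6% of all counts over the 58 probes in the tumours and 43.9% and 60.1% in the normal livers. The other 55 probes averaged 19.5 and 10.8 counts in the tumours and 10.8 and 10.2 in the normal livers. The median count over all 58 members was 15 and 8.5 in the tumours and 10 and 8 in the normal livers. The median over the 33 viral probes was 15 and 6 in the tumours and 11 and 9 in the normal livers, so the typical member was counted near the typical viral probe.

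The other 4 members detected throughout were lower. MiR-543 had 94 and 57 counts in the tumours and 29 and 34 in the normal livers. MiR-539, which acts on the mitochondrial protein prohibitin 2 in mouse heart muscle cells, had 68 and 34 counts in the tumours and 20 and 19 in the normal livers. MiR-377, which raises fibronectin in kidney mesangial cells, had 70 and 36 counts in the tumours and 23 and 38 in the normal livers. MiR-496 had 36 and 19 counts in the tumours and 26 and 14 in the normal livers. As a share of miRNA counts, a measure chosen after the values were seen, 6 of the 7 members were lower in both tumours than in both normal livers, and miR-543 overlapped. Of all mouse probes detected throughout, 36.8% were lower in this way and 42.6% were higher. These shares still hold background, at 7.50 and 7.67 counts per probe in the tumours and 8.83 and 7.67 in the normal livers.

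With the mean of the negative controls subtracted from each count, 2 of the 7 were lower in both tumours, miR-136 and miR-154, and 1 was higher, miR-539. Of all mouse probes detected throughout, 27.2% were then lower and 47.1% higher. MiR-376a overlapped, at 0.363% and 0.405% in the tumours and 0.402% and 0.977% in the normal livers, as did miR-377, miR-496 and miR-543. MiR-539 stood at 0.0252% and 0.0213% in the tumours and 0.0164% and 0.0183% in the normal livers.

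Detection in both tumours and neither normal liver was seen for miR-376b, miR-329 and miR-410. MiR-329, induced by neuronal activity together with its neighbours of the second stretch, had 26 and 16 counts in the tumours and 12 and 6 in the normal livers. MiR-410, known in mouse beta cells as a regulator of insulin secretion, had 26 and 16 counts in the tumours and 10 and 3 in the normal livers. Depth limits what this shows, as a check added after these values were seen makes plain. At its mean share above background in the tumours, miR-376b would have been expected at 16.8 and 14.9 counts in the normal livers, against limits of 18.3 and 11.2. For miR-329 the expected counts were 13.8 and 12.1, and for miR-410 they were the same. Lack of detection in normal liver replicate 1 was therefore expected even at equal abundance, while in normal liver replicate 2 all 3 were expected just above the limit. The observed counts lay below those expected in both normal livers, at 7 and 7 for miR-376b. Whether they did so by more than counting error was not tested.

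A further 4 members were detected in 3 samples. MiR-495 had 36 and 21 counts in the tumours and 18 and 19 in the normal livers. MiR-540-3p had 25 and 16 counts in the tumours and 14 and 17 in the normal livers. MiR-369-3p had 29 and 15 counts in the tumours and 12 and 12 in the normal livers. For these 3 the sample without detection was normal liver 1. MiR-654-3p had 17 and 15 counts in the tumours and 21 and 15 in the normal livers, and it was tumour 1 that fell short.

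The remaining members detected in 2 samples were split between the groups. MiR-380-3p, miR-323-3p, miR-381, miR-668 and miR-369-5p were detected in tumour 1 and normal liver 2, miR-382 in tumour 1 and normal liver 1, and miR-541 in tumour 2 and normal liver 1. The 10 seen in 1 sample were miR-770-5p, miR-431, miR-380-5p, miR-376c and miR-544 in tumour 1 and miR-770-3p, miR-665, miR-434-5p, miR-485 and miR-666-3p in normal liver 2. Tumour 1 had the highest total count and normal liver 2 the lowest limit.

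The 27 members detected in no sample ranged from 1 to 16 and from 2 to 12 counts in the tumours and from 1 to 17 and from 2 to 11 counts in the normal livers. They included miR-127, which lies opposite Rtl1 and represses it in placenta, with 15 and 11 counts in the tumours and 4 and 7 in the normal livers. MiR-379, the first of the second stretch, had 15 and 9 counts in the tumours and 3 and 7 in the normal livers. MiR-134, which limits dendritic spine growth in neurons, had 12 and 10 counts in the tumours and 6 and 5 in the normal livers. The others were both arms of miR-673, miR-337 and miR-409, with miR-323-5p, miR-434-3p, miR-540-5p, miR-654-5p, miR-666-5p, miR-299, miR-300, miR-341, miR-370, miR-411, miR-412, miR-433, miR-487b, miR-493, miR-494, miR-667, miR-679 and miR-758.

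Both arms had a probe for 11 hairpins, 22 probes in all, and none of these was detected in all samples. The 3p arm was detected in more samples than the 5p arm for 6 hairpins, the 5p arm for 1, and the numbers were equal for 4, of which 3 had neither arm detected anywhere. MiR-540-3p exceeded miR-540-5p in each sample, with 25 and 16 against 8 and 6 counts in the tumours and 14 and 17 against 6 and 5 in the normal livers. MiR-654-3p did so too, with 17 and 15 against 6 and 6 counts in the tumours and 21 and 15 against 3 and 8 in the normal livers. Arms have their own probes, whose efficiency may differ, so this is a comparison of counts and not of amounts.

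The members detected throughout were poorer in G and C than those never detected, a comparison made after their values were seen. GC content of the mature sequence was 36.4% to 50.0% with a median of 40.9% for the 7 detected throughout. It was 40.9% to 72.7% with a median of 54.5% for the 26 with a sequence among those never detected. The 22 with a sequence among those detected in 1 to 3 samples spanned 23.8% to 72.7%, with a median of 45.5%. Over 55 members the Spearman correlation of GC content with mean count was -0.501, given as a description since the points share libraries and many lie at background. Over the 174 other mouse probes with a name found unchanged in the table it was -0.122. Members named without an arm, among them all 7 detected throughout, were matched through the older naming, and the other probes were not. These correlations thus rest on unlike sets of probes and cannot show a trait particular to the cluster.

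Set against each other within a sample, the members give values that no scaling can move. MiR-154 was chosen as the base of these ratios after the values were seen. Relative to miR-154, and after subtracting the mean of the negative controls, miR-136 stood at 27.9% and 36.6% in the tumours and 51.0% and 90.1% in the normal livers. Its groups did not overlap, with or without the subtraction. MiR-376a stood at 244% and 309% of miR-154 in the tumours and 253% and 545% in the normal livers, where normal liver 1 lay inside the tumour range. MiR-539 stood at 16.97% and 16.2% in the tumours and 10.3% and 10.2% in the normal livers. MiR-543 stood at 24.3% and 30.4% in the tumours and 18.6% and 23.7% in the normal livers.

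Above the control mean, 1 of the 6 ratios was lower in both tumours than in both normal livers and 2 were higher. Among 135 mouse probes detected throughout, 20% were lower relative to miR-154 in this way and 56.3% higher. Without the subtraction, 2 of the 6 ratios were lower and 1 was higher, against 24.4% lower and 53.3% higher of those probes. MiR-377 overlapped either way, at 17.5% and 17.5% in the tumours and 13.1% and 27.2% in the normal livers. With 2 samples per group no exact permutation test of such a ratio can reach 0.05, and none was made.

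**Figure D2:**
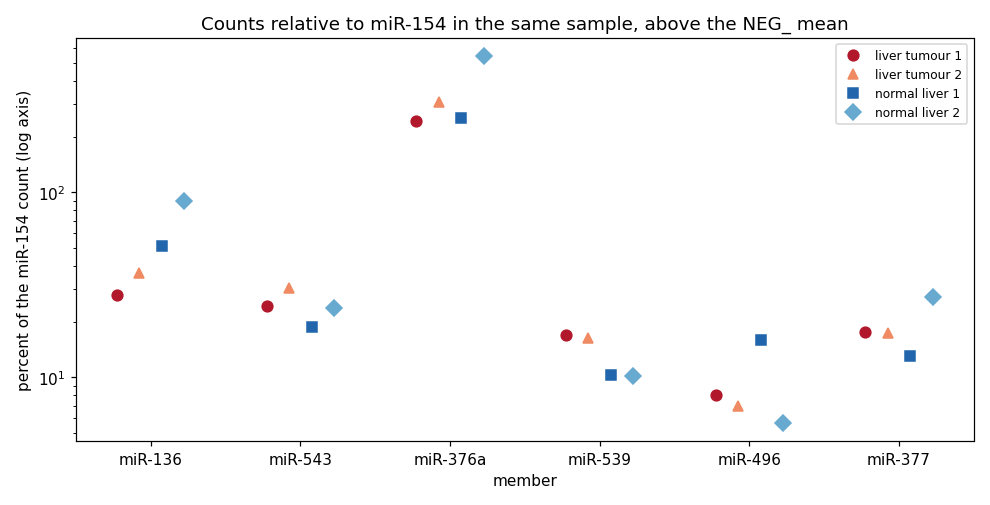
Counts of 6 members as a percentage of the miR-154 count in the same sample (vertical log axis), both above the mean of the negative controls, 1 symbol per sample. MiR-136 lies lower in both tumours (27.9% and 36.6%) than in both normal livers (51.0% and 90.1%), and miR-376a is highest in normal liver 2 (545%).

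The spread within the normal livers was itself uneven. MiR-376a took 70.7% (95% exact binomial interval 66.0 to 75.2) of the summed counts of miR-376a and miR-154 in normal liver 1 and 83.8% (80.9 to 86.4) in normal liver 2. In the tumours it took 70.7% (68.1 to 73.2) and 75.0% (71.5 to 78.2). MiR-136 took 35.4% (28.4 to 42.8) and 47.6% (40.9 to 54.3) of the sum with miR-154 in the normal livers, against 22.7% (19.0 to 26.8) and 28.3% (22.6 to 34.5) in the tumours. The normal livers thus differed in miR-376a by more than counting error.

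The deposited values are these counts times 1 factor per sample, 0.395 and 0.905 for the tumours and 2.09 and 2.30 for the normal livers. The same background therefore reads higher in the normal livers. The mean of the negative controls comes to 2.96 and 6.94 in the tumours and 18.4 and 17.6 in the normal livers, and the detection limit to 6.95 and 13.5 in the tumours and 38.2 and 25.6 in the normal livers. On log2(value + 1), tumour minus normal, the median difference was -1.86 for the 6 negative controls scaled in this way and -1.75 for the 33 viral probes. It was -1.35 for the 27 members detected in no sample, -1.47 for the 24 detected in 1 to 3 samples and -1.08 for the 7 detected in all. Over all 566 mouse probes it was -1.20.

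In the deposited scaling both tumours lay below both normal livers for 50 of the 58 members and above for 0. Of all mouse probes, 72.3% lay below and 8.3% above. Differences were tested with limma over the 276 mouse probes whose mean log2 value passed a limit set from the negative controls. Of the 58 members 21 passed. This limit was the second of 2 readings of the planned filter, and it was adopted after the results of both were known. Under the first, which pooled all NEG_ values, 116 probes and 4 members passed, and 2 members were called lower and 0 higher (29.3% and 16.4% of those probes). Limma called 15 of the 21 lower in the tumours and 0 higher, at an adjusted p under 0.05 (17 and 0 at an unadjusted p under 0.05). Of the 276 probes 46.7% were called lower and 7.97% higher. Both tumours lay below both normal livers for 19 of the 21 members, and for 64.5% of the 276 probes, with 15.2% above. The median difference was -1.42 over the 21 members and -0.90 over the 276 probes. Since passing the limit depended on the scaled background of the normal livers, these counts describe the values and support nothing about the cluster.

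Of the 7 members detected in all samples, limma called 4 lower. It called 46.7% of the 276 probes kept lower, and 36.8% when only probes detected in all samples were fitted. MiR-136 averaged 51.5 ± 13.0 in tumours and 191 ± 81.0 in normal livers (SD, n = 2 each), which is -1.82 on the log2 scale (SE 0.38, adjusted p = 0.00878 in limma). MiR-154 averaged 149 ± 7.11 in tumours and 259 ± 20.7 in normal livers, which is -0.79 on the log2 scale (SE 0.25, adjusted p = 0.0387 in limma). MiR-496 averaged 15.7 ± 2.11 in tumours and 43.2 ± 15.6 in normal livers (log2 difference -1.36, limma adjusted p = 0.0139). MiR-377 averaged 30.1 ± 3.49 in tumours and 67.6 ± 27.8 in normal livers (log2 difference -1.08, limma adjusted p = 0.0393). In the deposited values none of these 4 had overlapping groups, and neither had the rest of the 7. Both tumours lay below both normal livers for 64.5% of the 276 probes kept.

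The other 3 did not pass the test. MiR-376a had deposited values of 346 and 461 in the tumours and 590 and 1410 in the normal livers. Its log2 difference was -1.19 (95% interval -2.26 to -0.12, limma adjusted p = 0.0609). MiR-543 had 37.1 and 51.6 in the tumours and 60.5 and 78.1 in the normal livers, a log2 difference of -0.64 (limma adjusted p = 0.112). MiR-539 had 26.9 and 30.8 in the tumours and 41.7 and 43.6 in the normal livers, a log2 difference of -0.55 (limma adjusted p = 0.108). The smallest differences thus belonged to miR-539, miR-543 and miR-154 among these 7. The replicate number as a block moved the call of miR-376a (limma adjusted p = 0.00512) and ended that of miR-154 (limma adjusted p = 0.0652). In that fit every member had the same SE, 0.38, so these p-values do not measure the spread of each member itself. MiR-376a was also called with 10 or 30 added to the values in place of 1 (limma adjusted p = 0.03 and 0.0334). It was not called under the other scalings given below. Its log2 difference was -1.82 without normal liver 1 and -0.56 without normal liver 2.

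**Figure D3:**
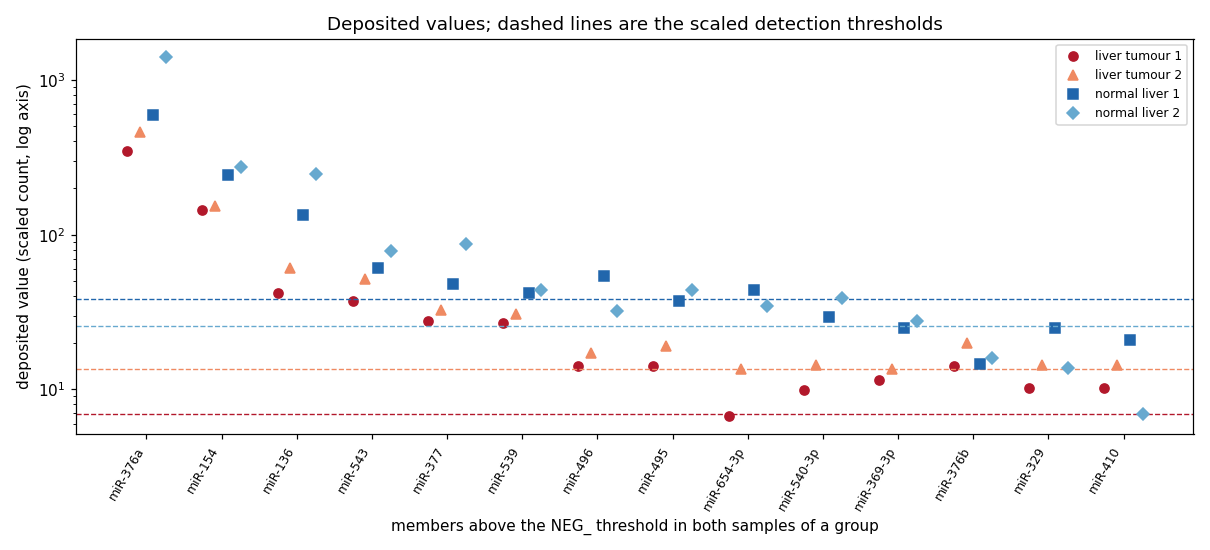
Deposited values (scaled counts, vertical log axis) of the 14 members detected in both samples of at least 1 group, 1 symbol per sample, with the detection limits in the same scale as dashed lines (6.95 and 13.5 in the tumours, 38.2 and 25.6 in the normal livers). Values of miR-376b, miR-329 and miR-410 in the normal livers lie under those lines.

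The scaling decided how far these members fell. With the positive controls set equal between samples, 0 members were called lower (2 at an unadjusted p under 0.05), with 2.17% of the 276 probes called lower and 8.33% higher. In that fit every member had the same SE, 0.57, so its p-values do not measure the spread of each member itself. The differences were then 0.13 for miR-154, 0.35 for miR-539, 0.27 for miR-543, -0.18 for miR-377, -0.27 for miR-376a, -0.47 for miR-496 and -0.91 for miR-136. The quasi-likelihood test of edgeR, run on recovered counts, called 4 members lower and 0 higher, with 14.1% of the 276 probes called lower and 25.7% higher. These were miR-136 (log2 difference -1.05, adjusted p = 0.0307), miR-668 (-1.43, adjusted p = 0.0127), miR-770-3p (-1.51, adjusted p = 0.0144) and miR-323-3p (-0.97, adjusted p = 0.0459).

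Equal medians left 4 members called lower and 0 higher (18.1% and 21.4% of the probes), and equal totals 8 and 0 (26.8% and 11.2%). Without the filter 33 of 58 members were called lower and 0 higher (48.8% and 2.83%), and with detection in at least 2 samples as the filter 14 and 0 (43.2% and 6.96%). With detection in all samples as the filter it was 4 of 7 and 0 (36.8% and 12.5%). Pseudocounts of 10 and 30 gave 17 and 14 members called lower and 0 higher (51.8% and 48.6% lower, 8.33% and 9.06% higher). The replicate number as a block gave 16 and 0 (51.8% and 6.88%), and crossed numbers 15 and 0 (46.4% and 6.52%).

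Leaving out 1 sample moved the count further. Without tumour 1 it was 11 members called lower (42% of the probes, 5.43% higher), and without tumour 2 it was 14 (46%, and 6.52% higher). Without normal liver 1 it was 10 (27.5%, and 3.99% higher), and without normal liver 2 it was 6 (17%, and 2.54% higher). No member was called higher in any of these 4 fits. With both background subtraction and equal positive controls 0 members were called lower (0.362% of the probes) and 1 higher (3.99%).

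MiR-136 kept a negative difference under each of the 5 scalings plotted, as did miR-376a, miR-377 and miR-496. MiR-136 was called under 3 of them. Of the other members plotted, miR-154, miR-539 and miR-543 turned above 0 with equal medians, in edgeR and with the positive controls set equal.

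**Figure D4:**
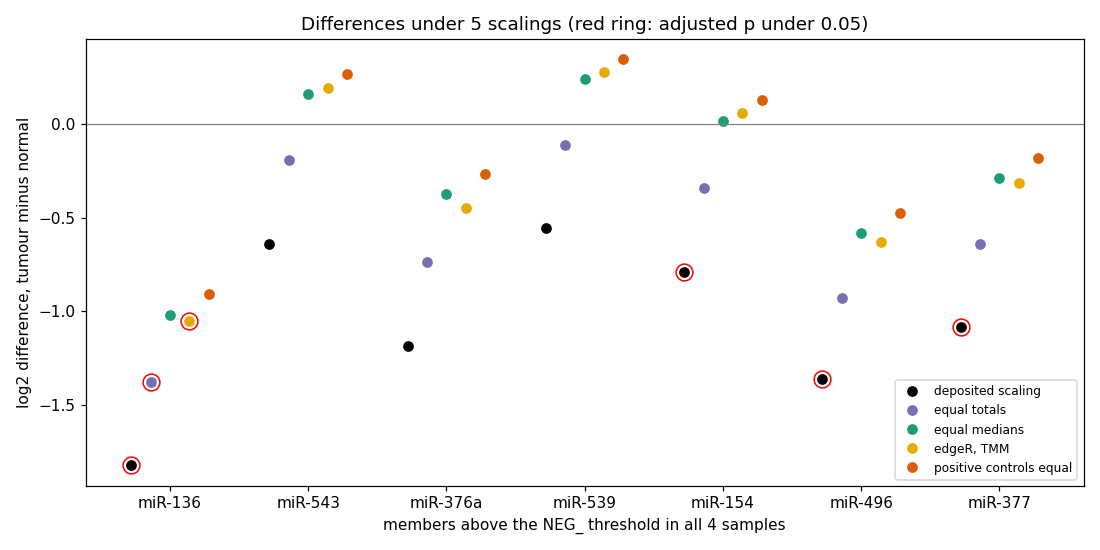
Log2 differences, tumour minus normal, of the 7 members detected in all samples under 5 scalings, with a red ring where the adjusted p was under 0.05. From the deposited scaling to equal positive controls miR-136 moves from -1.82 to -0.91 and miR-154 from -0.79 to 0.13.

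The 11 called members that were not detected in all samples sat close to background in the tumours, where 1 was detected in neither sample and 7 in 1. MiR-668 had 20 and 7 counts in the tumours and 16 and 17 in the normal livers, and limma gave a log2 difference of -2.20 (adjusted p = 0.00274). MiR-770-3p, from the miRNA within Meg3, had 16 and 10 counts in the tumours, under both limits, and 15 and 20 in the normal livers (log2 difference -2.18, limma adjusted p = 0.00339). MiR-654-3p followed at -1.91 (limma adjusted p = 0.00723). The counts of the groups overlapped or tied for all 3, while their deposited values did not overlap. No size of fall is given for them beyond the fitted value, since the tumour values are at or near background.

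The rest of these called members had like counts. MiR-369-5p had 27 and 9 counts in the tumours and 18 and 14 in the normal livers (limma adjusted p = 0.00339). MiR-323-3p had 20 and 8 counts in the tumours and 13 and 12 in the normal livers (limma adjusted p = 0.00339). MiR-380-3p had 25 and 12 counts in the tumours and 10 and 19 in the normal livers (limma adjusted p = 0.0192). For each of these 3 the counts of the groups overlapped, while the deposited values did not.

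MiR-381, induced by neuronal activity, had 20 and 11 counts in the tumours and 10 and 14 in the normal livers (limma adjusted p = 0.00964). MiR-382 had 23 and 10 counts in the tumours and 20 and 7 in the normal livers (limma adjusted p = 0.0359). The other 3, miR-540-3p, miR-495 and miR-369-3p, had log2 differences of -1.42, -1.25 and -1.02 (limma adjusted p = 0.00964, 0.0104 and 0.0172). Subtracting the mean of each sample's negative controls before scaling left 0 members called lower (4 at an unadjusted p under 0.05), with 0% of the 276 probes called lower, and edgeR without subtraction called 4. The differences themselves did not all shrink. After subtraction they were -1.80 for miR-136, -0.74 for miR-154, -1.85 for miR-654-3p, -2.96 for miR-668, -2.45 for miR-770-3p, -2.01 for miR-369-5p and -1.89 for miR-323-3p. They were -0.10 for miR-369-3p and -0.07 for miR-382. The SE of miR-668 was 1.02 after subtraction and 0.27 before it.

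The deposited values of miR-376b were 14.2 and 19.9 in the tumours and 14.6 and 16.1 in the normal livers, with a log2 difference of 0.13 (limma adjusted p = 0.723). After subtraction it was the 1 member counted as called higher, with 2.9% of the 276 probes called higher. Its normal liver counts of 7 and 7 were below the control means of 8.83 and 7.67 and were both set to 0. That group then had no spread of its own, so the call is no evidence of a rise, and no fold or p is given.

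MiR-541 and miR-329 had uneven samples. MiR-541 had 14 and 15 counts in the tumours and 29 and 7 in the normal livers, and its difference was not called (limma adjusted p = 0.0637). It was called with the replicate number as a block (limma adjusted p = 4.89e-05), with crossed numbers (0.0084) and with a pseudocount of 10 (0.0473). The replicate block gave every member the same SE, 0.38, so its p does not measure the spread of miR-541 itself (SE 0.66 without a block). For fits with 1 sample left out only the log2 difference of miR-541 is given, since a group then has 1 sample. It was -1.15 without tumour 1, -2.31 without tumour 2, -0.81 without normal liver 1 and -2.66 without normal liver 2. MiR-329 was not called either (log2 difference -0.57, limma adjusted p = 0.219).

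Markers of hepatocytes and of other cells were counted in the same samples. The 4 hepatocyte miRNAs of the list, miR-122, miR-192, miR-194 and miR-802, took 14.8% and 16.3% of miRNA counts in the tumours and 20.5% and 23.3% in the normal livers. The first 3 were detected in all samples and miR-802 in 3. In the deposited scaling limma called each of these 4 lower (adjusted p = 0.0348, 0.00799, 0.00726 and 0.0014). Of the 276 probes 46.7% were called lower and 7.97% higher. Of 6 mesenchymal miRNAs 5 were measured, and they took 2.56% and 1.30% in the tumours and 0.801% and 0.672% in the normal livers, and limma called 2 of the 5 higher. These were miR-199a-5p and miR-199a-3p, while miR-214, miR-143 and miR-145 had log2 differences of -0.08, 0.12 and 0.14 (limma adjusted p = 0.861, 0.786 and 0.723). The 6 neuronal miRNAs, from a tissue rich in this cluster, took 0.0592% and 0.0444% in the tumours and 0.104% and 0.108% in the normal livers, and the 4 muscle miRNAs 0.0993% and 0.0412% in the tumours and 0.0952% and 0.0580% in the normal livers. Limma called the neuronal miR-124, miR-128 and miR-219 lower (adjusted p = 0.0036, 0.00641 and 0.0296), and the other neuronal miRNAs did not pass its filter. The muscle sums overlapped between the groups and no muscle miRNA was called. None of the neuronal or muscle miRNAs was detected in all samples, and their shares hold background as the members' shares do. The part of these cells in the members' values was not tested.

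Summed over the 58 probes, the cluster took 1.01% (95% exact binomial interval 0.970 to 1.05) and 1.08% (1.03 to 1.14) of miRNA counts in the tumours, against 1.55% (1.46 to 1.64) and 2.26% (2.14 to 2.38) in the normal livers. After subtracting the control mean for each probe, these became 0.828% and 0.724% in the tumours and 0.799% and 1.54% in the normal livers. The groups then overlapped, and normal liver 2 alone stood apart.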

How the data were processed

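NanoString nCounter probe counts were deposited by the authors as signal values. For mouse, viral and mRNA probes each sample's values were whole counts multiplied by a single factor (100% whole within 0.1 count), and control probes were unscaled. How the factor was set is not stated in the labels. Counts were recovered by dividing by it, and totalled 247020 and 129422 in the tumours and 70204 and 63744 in the normal livers. Limma 3.58.1 (R 4.3.3; lmFit and eBayes, two-sided) was run on log2(value + 1). P-values were adjusted by Benjamini-Hochberg over the 276 probes kept.

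The planned filter kept probes whose average log2 value lay above the scaled negative controls, by their mean and 2 SD. That wording allows more than 1 reading. The first one run took the SD over all NEG_ values in the 4 samples and kept 116 probes, with 4 members and 2 of them called lower. It was replaced by the SD over the per-probe NEG_ means (3.925, 276 probes, 21 members and 15 called lower), because this sets probe means against control means and was the limit used in earlier work on these data. The change was made after both results were seen.

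EdgeR 4.0.16 (TMM, quasi-likelihood) on the recovered counts called 71 probes higher and 39 lower. Both fits were tested on simulated data. In the first simulation most of the probes tested were changed, and edgeR made many false calls there, for a reason that was not established. The simulation was then redrawn with a minority of probes changed, equally in both directions, so it says nothing about edgeR where most probes change. The members, lists and rule for named miRNAs (detected in both samples of a group, or called) were chosen with earlier results of these data known. Shares of miRNA counts, ratios to miR-154, the GC comparison, the expected counts and the viral limit were chosen after seeing the values. Sequences are RefSeq's, GRCm38.p6.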

Additional observations from a re-analysis of the deposited data

Results flagged for a closer look

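A pair of probes outside the mouse miRNAs gave counts above the negative control limit in all 4 samples, and both were for herpesvirus miRNAs. The probe for mghv-miR-M1-7-5p had 159 and 49 counts in the tumours and 30 and 37 in the normal livers. The probe for mcmv-miR-M87-1 had 44 and 20 counts in the tumours and 26 and 30 in the normal livers. The first of these exceeded miR-136 in tumour 1 (107 counts).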

How the results depend on the processing

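The number of members called lower was 15, and 4 with equal medians, 8 with equal totals, 4 in edgeR, 0 with the positive controls made equal (2 at an unadjusted p under 0.05), 0 after subtracting background (4 at an unadjusted p under 0.05, and 4 in edgeR without subtraction), 33 with no filter and 58 members tested, and 0 with both subtraction and equal positive controls (0 at an unadjusted p under 0.05). It was 4 over probes detected in all samples and 2 with the stricter limit from all NEG_ values, which was the limit run first and was replaced after both results were seen, and in these fewer members were tested (7 and 4). The number called higher was 0, and 1, miR-376b, in both settings with subtraction, where both its normal liver values were set to 0. The median difference of -1.42 became -0.65, -0.99, -0.67, -0.54 and -0.83 in the first 5 of these settings, -1.08 and -0.99 under the 2 narrower filters, 0.071 with subtraction and equal positive controls, and -0.99 and -0.61 with pseudocounts of 10 and 30. Leaving out each sample in turn gave 6 to 14 members called lower, 6 of them without normal liver replicate 2, and medians of -1.51 to -1.15. With equal positive controls, equal medians, edgeR, and subtraction with equal positive controls, in that order, differences turned above 0 for miR-154 (0.13, 0.019, 0.059 and 0.19), miR-539 (0.35, 0.24, 0.28 and 0.85), miR-543 (0.27, 0.16, 0.19 and 0.54) and miR-329 (0.30, 0.19, 0.14 and 2.24, and 1.61 with subtraction alone). Under the last of these they did so also for miR-541 (0.27), miR-377 (0.071), miR-369-3p (0.73), miR-380-3p (0.16), miR-381 (0.19) and miR-382 (0.57). The difference of miR-376b ranged from -0.10 (without tumour replicate 2) to 0.36 with 1 sample left out. Beyond what the settings change by construction, the cause was not tested. With 1 sample left out the difference of miR-154 was -0.87 to -0.71 (-0.79 with all samples). That of miR-136 after subtraction was -1.80 (-1.82 before it). For miR-154 with 1 sample left out and miR-136 after subtraction, a lost call thus does not show that the difference went away. MiR-369-3p and miR-382 lost their calls after subtraction with differences of -0.10 and -0.07 (-1.02 and -1.42 before it). MiR-136 lost its call after subtraction (limma adjusted p = 0.107). It also lost it with smaller differences: -1.38 without normal liver replicate 2, -1.02 with equal medians (limma adjusted p = 0.0726) and -0.91 with equal positive controls (0.288). With equal positive controls every member had the same SE, 0.57, so that p does not measure the spread of miR-136 itself. MiR-154 lost its call without any 1 of the samples. With the replicate number as a block 16 members were called lower, and with crossed numbers 15 (51.8% and 46.4% of the probes). The deviations of same-numbered samples correlated at 0.042. A single difference per group cannot show whether same-numbered samples share an animal or a batch. Detection gave 9 members in tumour 2 and 6 in normal liver 1 at the mean plus 3 SD, 12 in normal liver 2 with 1 pooled limit, and 9, 9, 6 and 5 members with the viral limit. No member probe named several miRNAs, so that alternative changed nothing. The settings with both changes, with crossed numbers, with the 2 narrower filters, with the viral limit and with background subtracted from the shares of miRNA counts (members lower in both tumours 2 in place of 6, higher 1 in place of 0) were added after seeing the data. Depth limits detection at a few counts over background.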
